A study of Homo sapiens with 6 samples.

Results

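SEPT9, which RefSeq now names SEPTIN9, lies on chromosome 17 inside the hg19 window chr17:75000001-76000000, a stretch rich in BRACHYURY (BRA) sites found in BMP4 medium. The members described here are all BRA peaks of the 4 deposited lists with a midpoint in that window. They number 86 of 54994 peaks in all, and 38 of them fall in the SEPT9 gene body, taken as 75277001 to 75497000. The window was chosen by its R&D Systems counts, in which peaks found in BMP4 medium but not in activin medium far outnumber the reverse. Those counts are therefore a description, and no test was made of them.

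BRA was immunoprecipitated from H9 cells, an established human embryonic stem cell line, after 36 h of differentiation. Cells in every library received 20 ng/ml FGF2 and 10 μM of LY294002, a PI3 kinase inhibitor. FLyA medium added 100 ng/ml activin A and gives endoderm progenitors, whereas FLyB medium added 10 ng/ml BMP4 and gives mesoderm progenitors. The comparison asks whether BRA occupies different sites in these progenitors, using an R&D Systems and a Santa Cruz antibody with 1 library per medium and antibody. All libraries come from 1 cell line. No medium has a second library with the same antibody, and p-values were not computed. Each peak is given as an interval of 400 bp without height or score, so the read depth and the precision of a single peak are unknown. The cell identity of either population could not be checked against marker genes, because the lists hold no expression values.

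BRA is a T-box transcription factor that is switched on in the primitive streak and is needed to form posterior mesoderm. It recognises the letters TCACACCT and close variants of them, singly or in inverted pairs, and often binds far from gene starts. SEPT9 encodes a septin, a GTP-binding protein that assembles with other septins into filaments at the cell cortex, along the cytoskeleton and at the cleavage furrow. The gene has many alternative first exons, and methylation of one of its promoters is used as a blood marker of colorectal cancer.

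The promoters of SEPTIN9 are shown first because the peaks spread through a gene with many start sites. RefSeq (GRCh38.p14) lists 10 promoter windows of 300 bases for the gene, each from 250 bases before to 50 after a start. On both strands, none of the 10 holds TCACACC, which occurs in 3.45% of all 35116 promoters, nor TCACACCT, which occurs in 0.980%. The shorter CACACC, which is contained in the other forms, is in 1 of the 10 (10.0%) and in 16.8% of all promoters. The most upstream promoter and the promoter with that match are printed below, the latter with its pair of GGTGTG runs, the reverse complement of CACACC, in capitals.

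SEPTIN9 most upstream promoter, chr17:77281249-77281548, plus strand: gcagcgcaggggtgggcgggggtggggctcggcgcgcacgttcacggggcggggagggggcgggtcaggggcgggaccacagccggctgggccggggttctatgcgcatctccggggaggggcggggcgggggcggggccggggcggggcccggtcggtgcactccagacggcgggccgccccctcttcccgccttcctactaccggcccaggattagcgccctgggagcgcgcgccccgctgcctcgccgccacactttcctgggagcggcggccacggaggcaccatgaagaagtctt

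SEPTIN9 promoter with CACACC matches, chr17:77375833-77376132, plus strand: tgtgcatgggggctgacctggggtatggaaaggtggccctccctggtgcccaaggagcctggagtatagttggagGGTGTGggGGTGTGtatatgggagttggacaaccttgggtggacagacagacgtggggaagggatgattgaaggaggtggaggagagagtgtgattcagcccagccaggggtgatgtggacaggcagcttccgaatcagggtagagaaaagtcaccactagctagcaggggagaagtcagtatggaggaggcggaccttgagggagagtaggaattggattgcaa

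These matches describe the letters only. The peaks are given in hg19 and the promoters in GRCh38, no position was carried from one build to the other, and peak sequences and exons in hg19 were not analysed here. Whether a peak lies on one of these promoters, in an exon or in an intron was therefore not determined.

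In the window, FLyB gave more BRA peaks than FLyA with each antibody. With the R&D Systems antibody there were 25 FLyA and 52 FLyB peaks, and with the Santa Cruz antibody 3 FLyA and 6 FLyB peaks. Per 100 kb this is 2.50 and 5.20 R&D Systems peaks, 2.84 and 6.46 times the density of the whole FLyA and FLyB lists. Chromosome 17 is peak-rich in every list, and relative to its own density the ratios were 1.45 and 2.54. For the Santa Cruz antibody, which played no part in choosing the window, the ratios to the whole list were 3.62 in FLyA and 5.87 in FLyB. The counting intervals of these ratios (95%, exact Poisson) are wide, from 0.747 to 10.6 in FLyA and from 2.15 to 12.8 in FLyB, and overlap. Relative to chromosome 17 the Santa Cruz ratios were 1.19 and 2.43.

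**Figure D1:**
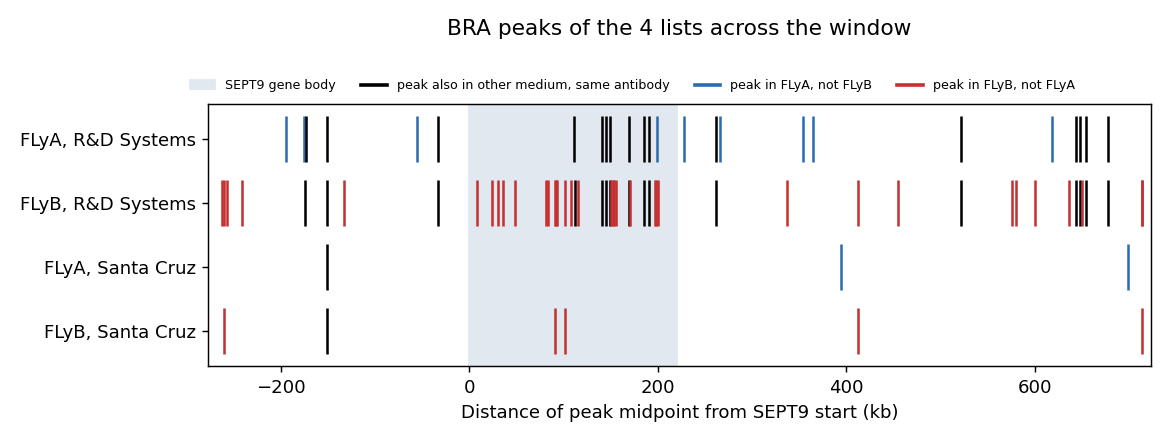
Positions of the 86 peaks in the 4 lists (rows), as distance of the peak midpoint from the SEPT9 start in kb, with the gene body shaded. Black lines are peaks that overlap a peak of the other medium with the same antibody, and coloured lines are peaks that do not. FLyB peaks in the gene body begin 7.98 kb after its start, with gaps of up to 33.3 kb, whereas the FLyA peaks there begin at 111.6 kb.

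An overlap of 1 bp or more made peaks of different lists shared. Of the R&D Systems FLyB peaks in the window, 36 of 52 overlapped no FLyA peak, a share of 69.2% (95% exact interval 54.9 to 81.3%), where the whole list has 63.9%. Of the FLyA peaks, 9 of 25 overlapped no FLyB peak, which is 36.0% (18.0 to 57.5%), where the whole list has 67.0%. On chromosome 17 as a whole the shares were 63.0% for FLyB and 56.4% for FLyA, each inside the interval of the window. The intervals cover counting error only and treat neighbouring peaks as independent, which they are not. Both shares in the window come from the contrast that chose it. The remaining 16 FLyA peaks each had a FLyB partner, with midpoints a median of 54 bp apart and between 4 and 342 bp.

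Within the window, FLyB peaks were denser in SEPT9 than outside it. The gene body covers 220 kb, or 22.0% of the window, and held 28 of the 52 R&D Systems FLyB peaks (53.8%, 39.5 to 67.8%). It held 8 of the 25 FLyA peaks (32.0%, 14.9 to 53.5%). The FLyB density was 12.7 peaks per 100 kb in the gene body (counting interval 8.46 to 18.4) and 3.08 in the remaining 780 kb (1.97 to 4.58), a ratio of 4.14. For FLyA the densities were 3.64 (1.57 to 7.17) and 2.18 (1.27 to 3.49), a ratio of 1.67. These densities describe a locus chosen on the same counts, and the intervals treat clustered peaks as independent, so no difference is read from them. With the Santa Cruz antibody, 2 of 6 FLyB peaks and 0 of 3 FLyA peaks lay in the gene body, which is 0.909 per 100 kb (0.110 to 3.28) for FLyB and 0 for FLyA, with an upper limit of 1.68. At these counts no difference between the media was detectable with that antibody.

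The gene body was also compared with other stretches of the same length. Chromosomes were divided from their first base into stretches of 220 kb, of which 11046 held a peak of any list and did not touch SEPT9. None of them held as many as 28 R&D Systems FLyB peaks, the most being 27 and the median 1. The same was true of the 21 FLyB-only peaks in the gene, against at most 19 elsewhere. For FLyA, 287 stretches held 8 or more peaks, up to 18. A dense stretch that straddles a boundary is divided by this count, and the FLyB counts of this locus are those that chose it.

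**Figure D2:**
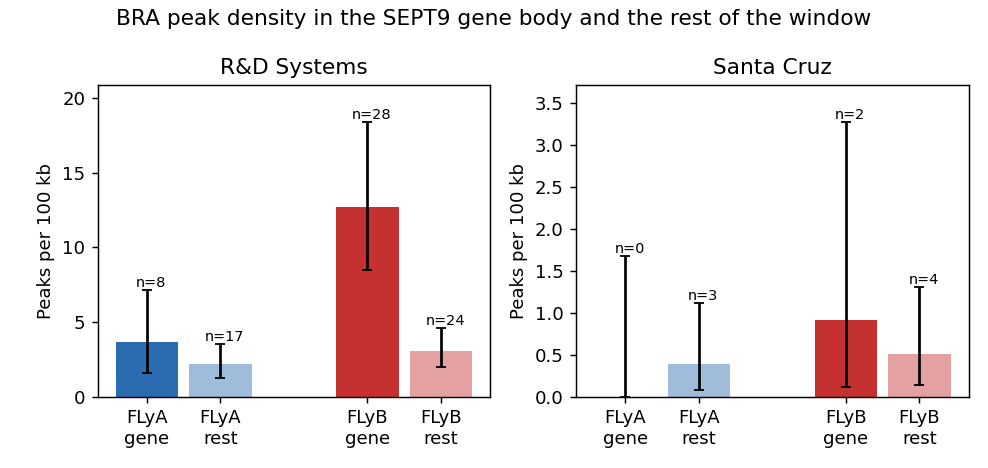
Peaks per 100 kb in the SEPT9 gene body and in the rest of the window, by medium, for the R&D Systems (left) and Santa Cruz (right) lists, on axes that differ in scale. Bars are densities from 1 library each, whiskers are exact 95% Poisson intervals for counting error, and n is the number of peaks. The R&D Systems FLyB bar for the gene, at 12.7, is the highest, and the other 3 lie between 2.18 and 3.64.

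Both media are represented in the gene body, but not along its whole length. The first 111.6 kb, up to the first FLyA peak, held 12 R&D Systems FLyB peaks and, by that definition, no FLyA peak. The remaining 108.4 kb held 16 FLyB and 8 FLyA peaks. FLyB peaks were thus spread at 10.8 and 14.8 per 100 kb over the earlier and the later part, while the FLyA density went from 0 to 7.38. This boundary was placed after seeing the peaks. No peak of any list was found at the start of the gene body as bounded here. The other start sites of the gene were not placed against the peaks. The nearest to that bound were a FLyB peak 7.98 kb after it, at chr17:75284784-75285183, and a site shared by both media 33.7 kb before it.

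**Figure D3:**
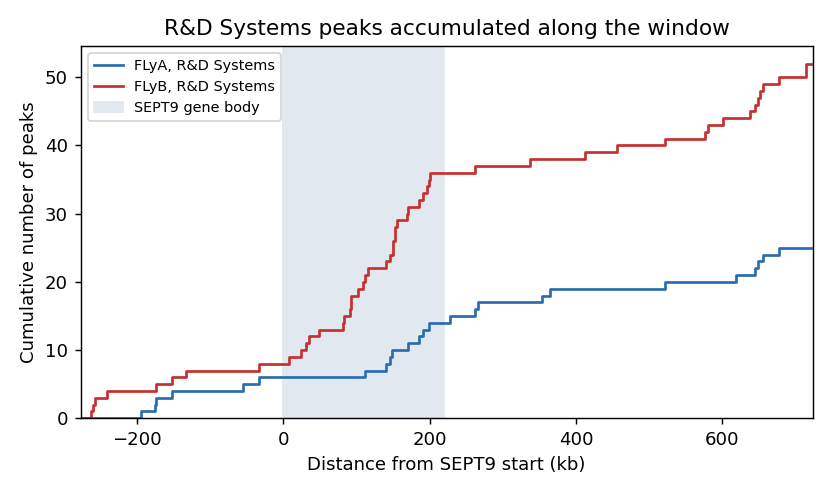
Cumulative number of R&D Systems peaks along the window for FLyA and FLyB, against the distance from the SEPT9 start in kb, with the gene body shaded. The FLyB line climbs by 28 peaks across the gene and the FLyA line by 8, all of them from 111.6 kb on, and outside the gene the lines rise by 24 and 17.

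In the earlier part of the gene, which is defined by its lack of FLyA peaks, the 12 FLyB peaks lay between 2.83 and 68.9 kb from the nearest FLyA peak. The FLyB peak at chr17:75312381-75312780 was the farthest of all FLyB-only peaks in the window, and chr17:75385146-75385545 was the nearest of the 12. A compact group of 3 FLyB peaks ran over 2.02 kb, from 75367995 to 75370016, and its last peak was 18.4 kb from the nearest FLyA peak. The Santa Cruz antibody also gave a FLyB peak at the first of them.

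In the later part, FLyB-only peaks were interleaved with shared sites. The run with the most peaks held 7 FLyB peaks, each at most 5 kb from the next, over 15.2 kb from 75417299 to 75432479. Its first 3 peaks coincided with the only such run of FLyA peaks in the window, with midpoints 4, 29 and 62 bp from those of their FLyA partners. The 4 peaks that follow, from 75427226 to 75432479, had no FLyA partner and lay 0.935 to 5.79 kb from the nearest FLyA peak. A further run of 3 FLyB peaks spanned 3.29 kb near the end of the gene, from 75473703 to 75476989. Successive FLyB peaks in SEPT9 lay a median of 4.89 kb apart, against 21.6 kb in the rest and 44.9 kb over the whole list. For FLyA these medians were 8.93, 22.2 and 53.5 kb, so closer spacing in the gene was seen with both media. Of the 27 FLyB gaps in the gene, 14 were 5 kb or less (51.9%), where the whole list has 17.1%. Of the 7 FLyA gaps there, 3 were that short (42.9%), where the whole list has 12.6%. Short gaps go with a high peak density, and the FLyB counts of this locus are those that chose it. The spacing is therefore a description.

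Of the 8 FLyA peaks in SEPT9, 7 overlapped a FLyB peak, and 1 (12.5%, 0.316 to 52.7%) did not. The whole list has 67.0% without a partner, and chromosome 17 has 56.4%. The exception, chr17:75476105-75476504, lay between FLyB peaks that start or end 180 and 85 bp away. With peaks up to 500 bp apart counted as shared, no FLyA-only peak remained in the gene body, whereas with at least 200 bp of overlap required the share was 37.5%. Outside the gene, 8 of 17 FLyA peaks (47.1%, 23.0 to 72.2%) had no FLyB partner, and they lay a median of 18.6 kb from the nearest FLyB peak. The intervals of these shares overlap. Since the window was chosen on this contrast between the media, the low FLyA-only share is a description.

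Of the 28 FLyB peaks in the gene body, 21 had no FLyA partner (75.0%, 55.1 to 89.3%), compared with 15 of 24 in the rest of the window (62.5%, 40.6 to 81.2%). The whole list has 63.9%, which lies inside both intervals, and a difference between the gene body and the rest in the share that is FLyB-only was not detectable at these counts. Of the 21 FLyB-only peaks in SEPT9, 11 lay within 10 kb of a FLyA peak (52.4%), against 2 of 15 in the rest of the window (13.3%) and 31.8% of the FLyB-only peaks of the whole list. Of these 11, 3 lay within 500 bp, so their class depends on the overlap rule. FLyA peaks were themselves denser in the gene body (3.64 against 2.18 per 100 kb), and the shares within 10 kb were not adjusted for that.

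Joining overlapping peaks of the 4 lists gave 63 separate sites, 29 in the gene body and 34 outside it. In the gene body, 19 sites were seen in the R&D Systems FLyB list alone, 2 in FLyB with both antibodies, 7 in both media with the R&D Systems antibody, and 1 in the R&D Systems FLyA list alone. In the rest of the window, the same classes held 12, 3, 8 and 8 sites. A further 2 sites there were in the Santa Cruz FLyA list alone, and 1 was in all 4 lists.

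The Santa Cruz lists played no part in choosing the window, although each medium has 1 input library, which the lists of both antibodies may share as a control. All 6 of its FLyB peaks in the window overlapped an R&D Systems FLyB peak (exact interval 54.1 to 100%), where its whole list has 79.0%. Of its 3 FLyA peaks, 1 overlapped an R&D Systems FLyA peak (33.3%, 0.840 to 90.6%), where its whole list has 31.9%. Between the Santa Cruz lists, 5 of the 6 FLyB peaks (83.3%, 35.9 to 99.6%) had no partner in the other medium. Of the 3 FLyA peaks, 2 had none (66.7%, 9.43 to 99.2%). The whole lists have 91.7% and 89.9%. Each whole-list share lies inside the interval of the window, and the counts are too small to separate window and whole list.

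Seen from the R&D Systems peaks, 6 of 52 in FLyB (11.5%, 4.35 to 23.4%) and 1 of 25 in FLyA (4.0%, 0.101 to 20.4%) were met by a Santa Cruz peak of the same medium. The whole lists have 10.0% and 3.02%. Among the FLyB-only peaks of the window the share was 5 of 36 (13.9%, 4.67 to 29.5%), against 7.47% of all FLyB-only peaks. In the gene body it was 2 of 21 (9.52%). Most FLyB-only sites in SEPT9 therefore rest on 1 library. The study describes its Santa Cruz libraries as weaker in signal over background and lower in unique reads than those of R&D Systems. The part of this in the peaks missing from the Santa Cruz lists was not tested.

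The FLyB-only sites seen with both antibodies number 5. Inside SEPT9 they are chr17:75367830-75368394, which is 91.1 kb after the start and opens the compact group above, and chr17:75378626-75379053, at 101.8 kb. Both lie in the earlier part of the gene, which is defined by its lack of FLyA peaks. Before the gene, chr17:75016447-75016897 sits in a run of 3 FLyB-only peaks over 5.92 kb. After it, the sites are chr17:75688999-75689433 and chr17:75990450-75990868, the latter close to the end of the window. Of the 9 FLyA-only R&D Systems peaks in the window, 0 were met by a Santa Cruz FLyA peak (upper limit 33.6%), and over the whole list 1.41% were.

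The only site in all 4 lists was chr17:75125294-75125723, 151 kb before the SEPT9 start, where the R&D Systems midpoints of the media were 11 bp apart. Sites shared by both media were also grouped after the gene. A run of 4 FLyB peaks over 11.4 kb, from 75920841 to 75932197, held 3 with a FLyA partner and 1 without. The Santa Cruz FLyA peaks without an R&D Systems partner were at chr17:75671302-75671701 and chr17:75976060-75976459, both after the gene. The longest stretch without a peak of any list was 77.0 kb, from 75144483 to 75221519, and lay before the gene.

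The counts at the edges show how far the pattern extends. The R&D Systems lists hold 28 FLyA and 30 FLyB peaks in the preceding 1 Mb and 23 and 27 in the following 1 Mb. The corresponding medium-only counts are 17 and 19 before the window, and 14 and 18 after it. FLyA thus gave between 23 and 28 peaks in each of the 3 windows, and the FLyB count was highest in the middle one. Of the 2843 windows of 1 Mb with a peak of any list, 1 held more FLyB peaks (53) and 1 other held as many FLyB-only peaks (36). For FLyA, 35 windows held more peaks, and 470 held more FLyA-only peaks. These R&D Systems counts chose the window, so its high FLyB rank is a description.

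**Figure D4:**
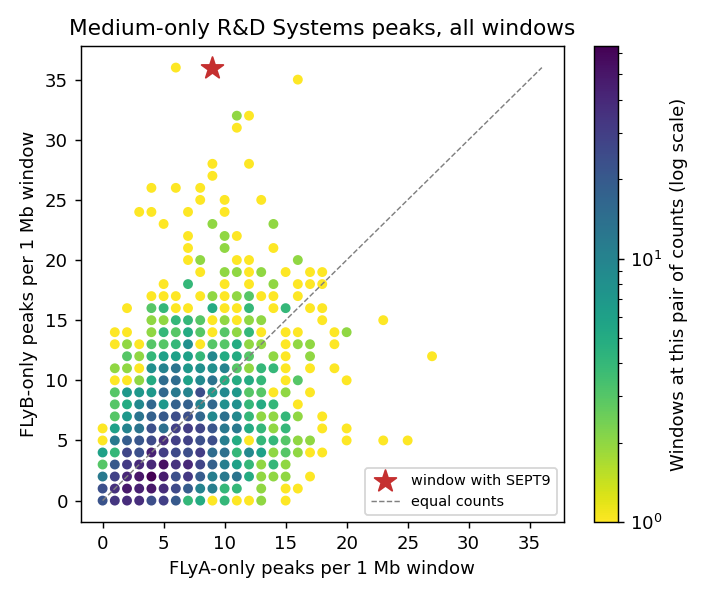
Medium-only R&D Systems peaks in each of 2843 windows of 1 Mb, FLyA-only on the horizontal and FLyB-only on the vertical axis, with colour giving the number of windows at each pair of counts on a log scale. The star marks the window with SEPT9, at 9 FLyA-only and 36 FLyB-only peaks, far above the dashed line of equal counts. The window was chosen on these counts.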

How the data were processed

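BRA ChIP-seq libraries from H9 cells were sequenced on a Genome Analyzer II. The submitters' processing notes name Bowtie 0.12.7 and hg19, and per the methods peaks were called with MACS. The authors deposited 1 list of peaks for each of 4 libraries, as chromosome, start and end only, every interval being 400 bp wide. A MACS threshold of 1e-12 stands in the track lines of the Santa Cruz files. For the R&D Systems files it is not given in the sources used here, nor are the control behind each list and how duplicate reads were handled. The input libraries were not analysed here.

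Peaks were placed by midpoint and printed counting from 1. Overlap, exact (Clopper-Pearson) and Poisson 95% intervals were computed with Python 3.11.15 and SciPy 1.17.1, and figures with matplotlib 3.10.9. The overlap function was tested on simulated data. The length behind whole-list densities is the span of the 4 lists on each chromosome. The bounds of SEPT9 were rounded to 1 kb. Window, gene and comparisons were chosen with earlier results of these data known. Every gene was to be counted from an hg19 annotation, and T-box motifs from hg19 sequence. Neither was used here, so SEPT9 alone is named, and motifs were searched in RefSeq promoters instead.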

Additional observations from a re-analysis of the deposited data

How the results depend on the processing

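Alternatives were tried for the overlap that counts as shared, the bounds of the window and of the gene body, the background density, the merging of antibodies and the merging of overlapping peaks. Of 54 values under alternatives to peak counts and shares, 51 stayed inside the 95% counting interval of the reported value. With chromosome 17 as background, the density ratio was 1.45 for the R&D Systems FLyA list and 2.54 for the FLyB list. With peaks at most 500 bp apart counted as shared, the FLyA-only share in the gene body was 0. The first change follows from the higher peak density of that chromosome and the second from a single peak with a FLyB peak 85 bp away. With at least 200 bp of overlap that share was 37.5%. The ratio of FLyB peak density in the gene body to that in the rest of the window ranged from 3.69 to 4.14 for R&D Systems and from 1.58 to 2.31 for Santa Cruz. The Santa Cruz ratio rests on 2 peaks in the gene body. Its reported value of 1.77 has a counting interval of 0.160 to 12.4, which includes equal density. The search of promoters, and its longer and shorter motifs, were chosen after seeing the data, and the shorter motif moved the share of SEPTIN9 promoters with a match from 0 to 10.0%. A stricter threshold was not run, since the lists hold no score, nor were motifs in peaks. The media could be paired by antibody, which gives 2 pairs, but the samples share no replicate number and no paired test was run. Depth is unknown, so the absence of a peak in 1 medium does not show that BRA was absent there.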
